A study of Mus musculus with 3 samples.

Results

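This account covers 35 genes that copy DNA in S phase or drive entry into it: replication licensing, helicase, polymerase and nucleotide supply genes, cyclin E, E2F factors and Uhrf1. Their members are all probe sets to which the platform annotation gives exactly 1 of these 35 symbols, which took 77 of the 45101 probe sets on the array. The cells were CT26.WT, a mouse colon carcinoma line, and were held without serum for 12 h. One culture then received 4 µg/ml of recombinant mouse S100a8 and another 4 µg/ml of recombinant mouse S100a9, both for a further 24 h. The control culture went through the same serum-free period, and its labels name bovine serum albumin in one field and saline in others, with no time for its last step. Each group was 1 culture on 1 Affymetrix Mouse Genome 430 2.0 array, so the design holds no replicates, no spread between cultures could be measured, and no test was possible. Both proteins were compared with the same control array, so a chance deviation of that array enters both comparisons.

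S100a8 and S100a9 are calcium-binding proteins that myeloid cells release during inflammation. Replication begins when the origin recognition complex, Cdc6 and Cdt1 load the MCM ring onto DNA, and Cdc45 and GINS turn that ring into the active helicase. The clamp Pcna, its RFC loader and the polymerases then copy the strands from deoxynucleotides that ribonucleotide reductase, thymidylate synthase and thymidine kinase supply. E2F transcription factors switch many of these genes on once cyclin-dependent kinases inactivate the retinoblastoma protein, and serum withdrawal is a classical way to slow that step in cultured cells.

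The values are MAS5 signals on a linear scale, and they are given in the order S100a8, S100a9 and control unless a sentence names them. A gene is described by its brightest probe set, and its log2 ratio is taken after signals below 76.0, the median of all signals, were raised to that floor. All 35 genes had a brightest probe set whose mean lay above the floor, against 11138 of 18193 named genes. The median signals of the S100a8, S100a9 and control arrays were 78.6, 73.6 and 76.1. In a bulk culture, fewer cycling cells and less RNA per cell cannot be told apart, and scaling each array to a common level removes any change in total RNA.

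Exposure to either protein was accompanied by small differences in replication genes, and no brightest probe set differed from control by 1.5-fold. That size was passed, upward and downward, by 1.13% and 1.91% of all compared genes with S100a8 and by 0.251% and 0.853% with S100a9. With S100a8, the 35 log2 ratios ran from −0.17 (Rfc3, a clamp loader subunit) to 0.34 (E2f2, an activating E2F factor), with a median of 0.03. With S100a9 they ran from −0.18 (Rfc3) to 0.27 (Gins2, a GINS subunit), with a median of 0.05. The median over all 11138 compared genes was 0.01 with S100a8 and 0.005 with S100a9. With 1 array a group, these values carry no measured error between cultures.

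Of the 35 genes, 23 lay above control with S100a8, where 52.5% of all compared genes did, and 22 lay above control with S100a9, where 51.2% did. E2f2 was the 1 member at least 1.2-fold higher with S100a8, a size that 13.8% of all compared genes reached, and 0 members were at least 1.2-fold lower, against 11.2%. Gins2 was the 1 member at least 1.2-fold higher with S100a9, against 6.08% of all compared genes, and 0 members were at least 1.2-fold lower, against 7.84%. Dim signals are noisy, and 34 of the 35 members had a mean signal of 200 or more. Among the 8078 compared genes that bright, 46.8% lay above control with S100a8 and 52.4% with S100a9. At the 1.2-fold size, 7.50% of them were higher and 11.8% lower with S100a8, and 5.35% and 7.29% with S100a9. On brightest probe sets, members this far from control were few in both directions, 1 higher and 0 lower in each comparison. Of the 65 member probe sets above the floor, 4 were higher and 2 lower with S100a8. Among 19410 named probe sets above the floor, 2606 were higher and 2786 lower. With S100a9, 2 of the 65 were higher and 1 lower, against 1358 and 2079 of the 19410. The counts of members and of their probe sets were not tested against those of all genes or probe sets. The limit of 200 also does not match the members' brightness, since their signals reached 11920. The split depends on the processing, for the compared genes at large as well. With each array centred on its median, 28 of 35 members lay above control with S100a8 (60.7% of all compared genes) and 26 with S100a9 (53.7%). With quantile normalization they were 26 (57.4%) and 27 (57.6%). With the mean of all probe sets they were fewer, 20 of 34 (51.3%) and 21 of 34 (50.4%).

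**Figure D1:**
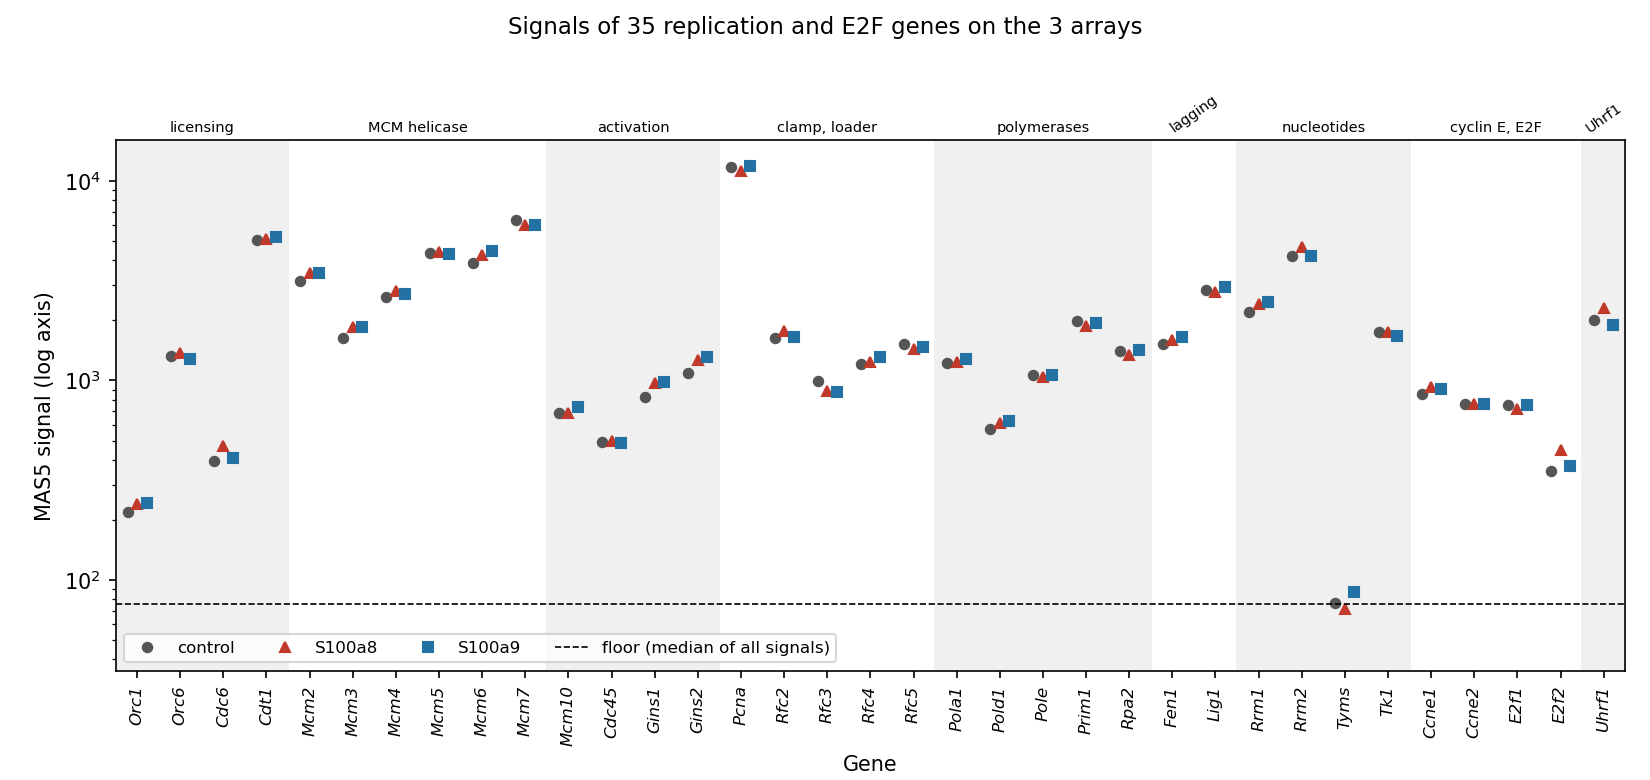
MAS5 signal (log axis) of the brightest probe set of each of the 35 genes on the control (circle), S100a8 (triangle) and S100a9 (square) arrays, 1 array each, with genes ordered by role and the floor of 76.0 as a dashed line. The symbols of a gene lie close together, and Tyms lies at the floor.

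E2F factors bind short words rich in T, G and C, and members of this group were looked up in a RefSeq table of promoters (GRCm38.p6, from 250 bases before to 50 after each start), which held 29 of the 35 genes. The words TTTCGCGC, TTTGGCGC and TTTCCCGC were searched on both strands, and overlapping matches were kept. At least 1 of them lay in the promoters of 13 of the 29 genes (44.8%), against 2.12% of the 27025 genes in the table, and in 37.1% of 35 member promoters against 1.84% of 32851 promoters. The CCAAT box, the word bound by NF-Y, lay in 62.1% of member genes and 41.1% of all genes. The word TTTGAA, the core of the CHR element of mitotic genes, lay in 13.8% and 20.2%, and its variant TTCGAA in 6.90% and 1.80%. A match describes these letters and shows no binding. The group was chosen in part as E2F target genes, so its excess of E2F words follows from that choice.

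Mcm6 and Mcm5 are printed because they held the most E2F words before the start, and Cdc6, Uhrf1 and Mcm7 as examples with 1 word there. Orc1, Rfc3 and Pola1 also held 1 word before the start and are not printed. Sequences run 5′ to 3′ on the gene's strand, upstream of the start, with the E2F words in capitals on either strand.
Mcm6, chr1:128359725-128359835, minus strand: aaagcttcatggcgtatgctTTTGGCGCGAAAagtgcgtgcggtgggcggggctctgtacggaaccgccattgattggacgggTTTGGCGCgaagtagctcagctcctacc
Mcm5, chr8:75109336-75109387, plus strand: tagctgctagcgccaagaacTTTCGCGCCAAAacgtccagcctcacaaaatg
Cdc6, chr11:98907993-98908040, plus strand: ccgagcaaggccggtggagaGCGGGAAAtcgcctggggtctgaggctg
Uhrf1, chr17:56304108-56304155, plus strand: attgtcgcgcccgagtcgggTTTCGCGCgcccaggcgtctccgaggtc
Mcm7, chr5:138172021-138172068, minus strand: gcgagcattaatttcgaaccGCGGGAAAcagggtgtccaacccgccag
In Mcm6 and Mcm5 a run of 12 capitals holds a pair of overlapping words on opposite strands, and Mcm6 holds a further word nearer the start. The 13 genes with a word had medians of 0.10 (S100a8) and 0.06 (S100a9) on the log2 ratio scale, and the 16 genes without one 0.01 and 0.02. The 6 members with no promoter in the table had 0.11 and 0.04, so their S100a8 median was as high as that of the genes with a word. Ranges overlapped: from −0.17 to 0.34 with a word and from −0.09 to 0.15 without one, for S100a8.

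Licensing genes lay at or slightly above control with S100a8. Orc1, an ATPase subunit of the origin recognition complex, had signals of 240.2, 244 and 219, which gave log2 ratios of 0.13 and 0.15 for S100a8 and S100a9. A second, dimmer Orc1 probe set gave 96.4, 88.4 and 99.0, with the control highest. Orc6, the smallest subunit of that complex, had 1378, 1277 and 1334, close together on all arrays, with ratios of 0.05 and −0.06. Cdc6, the loader of the MCM ring, had 467 (S100a8), 410.4 (S100a9) and 393 (control). Its S100a8 signal stood above the other two, with log2 ratios of 0.25 and 0.06. Cdt1, the partner of Cdc6 in loading, had 5107, 5267 and 5037 (0.02 and 0.06), and a second probe set had 1478, 1446 and 1575, with the control highest there.

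The MCM genes, which encode the helicase ring, did not all lie on the same side of control. Mcm2 had signals of 3454, 3445 and 3166 on its brightest probe set (0.13 and 0.12) and 1463, 1428 and 1210.2 on a second one (0.27 and 0.24). Both probe sets were lowest on the control array. Mcm3 had 1863, 1862 and 1628 (0.19 and 0.19), again lowest in the control. Of its 3 further probe sets above the floor, 1 had 1176, 1322 and 1015 (0.21 and 0.38), another 1598, 1496 and 1409 (0.18 and 0.09), and the dimmest 556, 601 and 559.6 (−0.01 and 0.10). Mcm6 had 4265, 4454 and 3887 (0.13 and 0.20), with the highest signal under S100a9.

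Mcm4 and Mcm6 each carried a second probe set that stood apart on the S100a8 array. For Mcm4, the brightest probe set had 2797 (S100a8), 2702 (S100a9) and 2617 (control), log2 ratios of 0.10 and 0.05. The other Mcm4 probe set, of the _x_at class whose probes can match several transcripts, had 1037 (S100a8), 675 (S100a9) and 590.0 (control), and its S100a8 ratio of 0.81 was the largest of the 65 member probe sets above the floor. The second Mcm6 probe set, of the same class, had 1548, 1070.1 and 1139, with ratios of 0.44 and −0.09. With the mean of all probe sets in place of the brightest, Mcm4 had 0.45 for S100a8. These high values rest on 1 probe set per gene on 1 array. The brightest probe sets of Mcm5, Fen1 and Rrm2 are of the _x_at class as well.

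Mcm7 was the MCM gene with lower signals. Its brightest probe set had 6049.9 (S100a8), 6049 (S100a9) and 6400.0 (control) (−0.08 and −0.08). The other 3 had 1778, 1843 and 2044 (−0.20 and −0.15), 1672, 1585 and 1727 (−0.05 and −0.12) and 2753, 2609 and 2797 (−0.02 and −0.10). The control array was highest on all 4 Mcm7 probe sets. Mcm5 was near control, with 4394, 4302 and 4361 (0.01 and −0.02) and, on a second probe set, 1419, 1383 and 1511 (−0.09 and −0.13). The remaining, dim Mcm5 probe set had 126, 166 and 157 and log2 ratios of −0.31 and 0.08.

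Among the genes that activate the helicase, both GINS genes had higher signals than control. Gins1 had 968 (S100a8), 982 (S100a9) and 824 (control), which gave log2 ratios of 0.23 and 0.25. Gins2 had 1269 (S100a8), 1319 (S100a9) and 1094 (control), ratios of 0.21 and 0.27, and its second probe set had 551, 549.7 and 474 (0.22 and 0.21). On each of these 3 probe sets both treated arrays lay above the control. Mcm10, a scaffold that helps fire the helicase, had 688, 736 and 691 (−0.0058 and 0.09). Cdc45, the third component of the active helicase beside MCM and GINS, had 498, 488 and 492 (0.02 and −0.01), and a dimmer probe set 128, 114 and 137 (−0.10 and −0.27). The signals of Cdc45 on its brightest probe set were the same within a few units, while the dim one was highest in the control.

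The clamp and its loader had no common direction. Pcna, the sliding clamp, had 11246 (S100a8), 11920.2 (S100a9) and 11741 (control), log2 ratios of −0.06 and 0.02, the lowest being the S100a8 array. Rfc3 had 882, 873 and 989.8 on its brightest probe set, with the control highest and ratios of −0.17 and −0.18, the lowest of any member in both comparisons. Its second probe set had 659.8, 602 and 607 (0.12 and −0.01), where the S100a8 array was highest, so the probe sets of Rfc3 disagreed for S100a8. Rfc2 had 1767, 1658 and 1626 (0.12 and 0.03), and its other probe sets had S100a8 ratios of 0.17 and 0.11, lowest in the control on all 3. Rfc4 had 1240.1, 1315 and 1212 (0.03 and 0.12) and, on a second probe set, 698, 762 and 716 (−0.04 and 0.09). Rfc5 had 1431, 1470.0 and 1519 (−0.09 and −0.05), highest in the control.

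Polymerase genes lay close to control on their brightest probe sets. Pola1, the catalytic subunit of the polymerase that starts each strand, had 1240.2, 1287 and 1223 (0.02 and 0.07), and its partner Prim1, the primase, had 1887, 1945 and 1977 (−0.07 and −0.02). A second Prim1 probe set had 1404, 1610.1 and 1579 (−0.17 and 0.03), lowest with S100a8. Pold1, of the lagging-strand polymerase delta, had 610.3, 624 and 571 (0.10 and 0.13), and 546, 511 and 542 on a second probe set (0.01 and −0.08). Pole, of the leading-strand polymerase epsilon, had 1046, 1066 and 1068 (−0.03 and −0.003), with all arrays close together. Rpa2, a subunit of the single-strand binding protein, had 1348, 1421 and 1407 (−0.06 and 0.01), while its second probe set had 719 (S100a8), 802 (S100a9) and 887 (control). That second set gave −0.30 and −0.15, the S100a8 value being 1.24-fold lower. Fen1, the flap nuclease of lagging-strand maturation, had 1598, 1654 and 1522 (0.07 and 0.12) and 910.4, 957 and 864 (0.08 and 0.15), lowest in the control on both. Lig1, the ligase that seals the fragments, had 2764, 2934 and 2841 (−0.04 and 0.05).

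**Figure D2:**
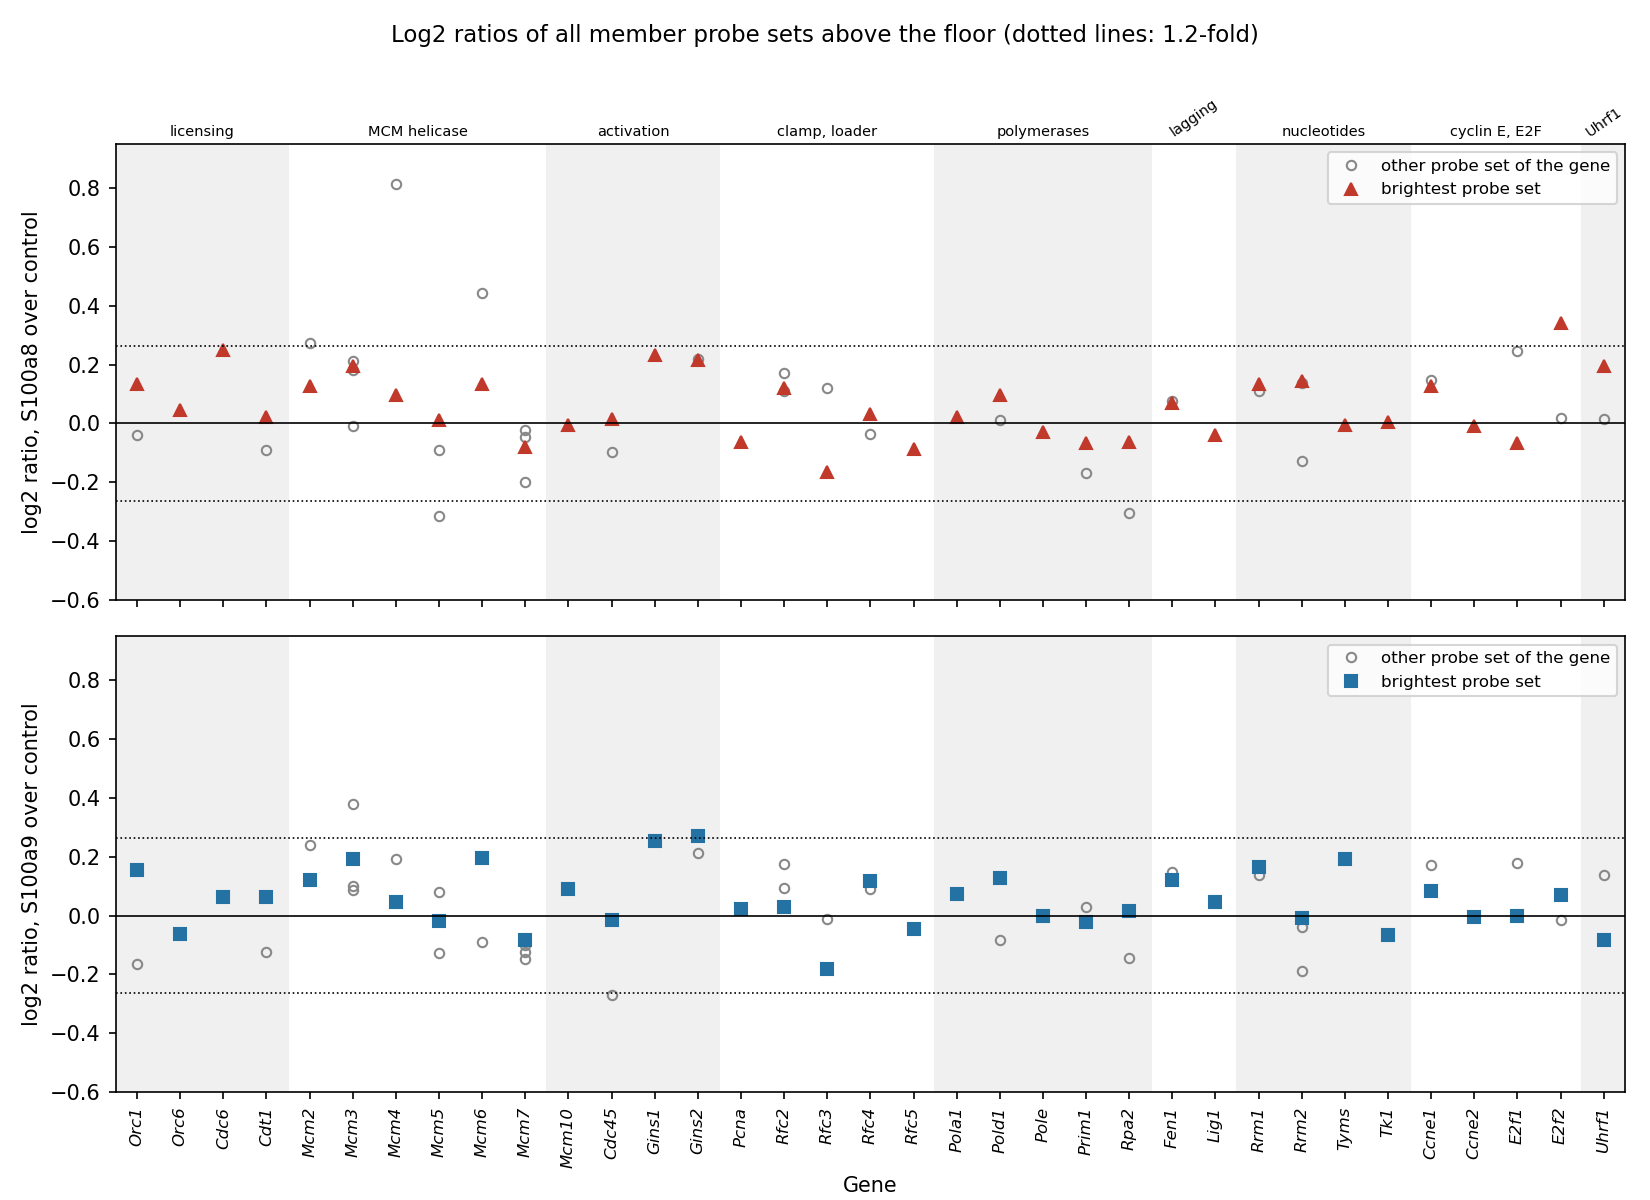
Log2 ratio to control of the 65 member probe sets above the floor, for S100a8 (upper panel) and S100a9 (lower panel); filled symbols are the brightest probe set of a gene, open circles its other probe sets, and dotted lines mark 1.2-fold. The Mcm4 and Mcm6 open circles with S100a8 (0.81 and 0.44) lie far above their filled symbols, and E2f2 (0.34) is the 1 filled symbol above the dotted line in the upper panel.

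In nucleotide supply, the subunits of ribonucleotide reductase gave different patterns. Rrm1, the large subunit, had 2432, 2486 and 2215 (0.13 and 0.17) and 1479, 1508 and 1369 (0.11 and 0.14), lowest in the control on both. Rrm2, the small subunit whose level follows S phase, had 4667 (S100a8), 4199 (S100a9) and 4219.7 (control), log2 ratios of 0.15 and −0.0071. Its other probe sets had 2996, 2651 and 2726 (0.14 and −0.04) and 1476, 1415 and 1614 (−0.13 and −0.19), so that S100a8 was highest on 2 of 3 and the control on the third. Tk1, thymidine kinase, had 1749, 1665 and 1743 (0.0048 and −0.07). Tyms, thymidylate synthase, was measured only near the floor by probe sets with its single symbol. Its brightest had 71.5, 87.1 and 76.3 and another 60.9, 70.5 and 96.8, so no difference was measurable with these probe sets. A probe set that the annotation gives to both Tyms and a pseudogene was left out of the comparison. Its signals were far higher, 1430, 1441 and 1314, and lowest in the control. The dim values above therefore need not mean a low level of Tyms RNA.

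Of the genes at the G1/S switch, E2f2 had the largest S100a8 ratio among the brightest probe sets. E2f2 had 448 (S100a8), 371 (S100a9) and 353 (control), so the S100a8 array stood alone and the ratio was 0.34 (1.27-fold) there and 0.07 with S100a9. The second E2f2 probe set had 269, 263 and 265, with ratios of 0.02 and −0.01, and did not share that difference. E2f1, an activating E2F factor, had 717, 749.7 and 751 (−0.07 and −0.0021) on its brightest probe set and 714, 682 and 603 (0.24 and 0.18) on another of near-equal signal, lowest in the control only on the latter. Ccne1, a cyclin that activates Cdk2, had 931, 904 and 853 (0.13 and 0.08) and 891, 907 and 805 (0.15 and 0.17), lowest in the control on both. Ccne2, its paralogue, had 761, 763 and 766 (−0.01 and −0.0058), nearly equal on all arrays. Uhrf1, which brings the maintenance methyltransferase to newly copied DNA, had 2304 (S100a8), 1904 (S100a9) and 2015 (control), ratios of 0.19 and −0.08. Its second probe set had 670.1, 729 and 663 (0.02 and 0.14), where S100a9 was highest.

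By role, the median log2 ratio with S100a8 was 0.09 for the 4 licensing genes, 0.11 for the 6 MCM genes and 0.11 for the 4 helicase activation genes. It was −0.06 for the 5 clamp and loader genes, −0.03 for the 5 polymerase, primase and Rpa2 genes, 0.02 for Fen1 and Lig1, 0.07 for the 4 nucleotide supply genes and 0.06 for the 4 cyclin E and E2F genes. With S100a9 these medians were, in the same order, 0.06, 0.08, 0.17, 0.02, 0.01, 0.08, 0.08 and 0.03. The nucleotide supply medians count Tyms, whose signals lie near the floor. With the floor at the 65th percentile, which leaves Tyms out, that median was 0.13 with S100a8. With S100a9 it was −0.0071, nearly equal to control, so the S100a9 median of 0.08 depends on counting Tyms. The role groups overlapped, since the MCM genes spanned −0.08 to 0.19 and the clamp and loader genes −0.17 to 0.12 with S100a8. These groups were compared as values only.

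Agreement between probe sets is the only measure of technical error in these arrays. Several probe sets above the floor were present for 23 members, whose ratios (log2) spanned a median of 0.17 within a gene with S100a8 and 0.16 with S100a9, against 0.23 and 0.18 over 4948 such genes. The largest spans were those of Mcm4 (0.72) with S100a8 and Orc1 (0.32) with S100a9. These spans exceed most of the members' differences from control. With S100a8, all probe sets lay above control for 11 of the 23 members (24.5% of such genes overall) and below it for 3, Mcm7, Prim1 and Rpa2 (28.0% overall). With S100a9 they lay above for 9 (25.7% overall) and below for 4, Cdc45, Mcm7, Rfc3 and Rrm2 (25.9% overall). This spread covers the probes of an array and says nothing about the spread between cultures.

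S100a9-treated cells differed from S100a8-treated cells by a median log2 ratio of 0.02 over the 35 members and also over all compared genes. Higher signals with S100a9 were found for 20 members, against 54.9% of all compared genes and 62.4% of the bright ones, and with each array centred on its median for 14, against 45.1% of all compared genes. The members at least 1.2-fold lower with S100a9 were 2, Uhrf1 (−0.27) and E2f2 (−0.27), against 10.8% of all compared genes and 4.00% of the bright ones, and 0 were as much higher, against 4.27% and 3.40%. Cdc6 (−0.19) and Rrm2 (−0.15) followed on that side, and Tyms, at the floor, had the highest ratio (0.20). Over the second probe sets the values were 0.12 for Uhrf1 and −0.03 for E2f2. At the level of probe sets, the largest differences were Mcm4 (−0.62) and Mcm6 (−0.53), the sets described above.

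A further list of 81 replication and S-phase genes, none of them members, was compared in the same way, and 75 had a probe set above the floor. Of these 75, 50 lay above control with S100a8 and 55 with S100a9, against 52.5% and 51.2% of all compared genes. Their medians were 0.04 and 0.07. At the 1.2-fold size 4 were higher and 1 lower with S100a8, against 13.8% and 11.2% of all compared genes. With S100a9, 2 were higher and 1 lower, against 6.08% and 7.84%. Genes of this size were thus no more frequent in the list than among all compared genes. Ung, the uracil glycosylase that removes misincorporated uracil, had 307, 275 and 227 (0.43 and 0.28). Rnaseh2c, a subunit of the nuclease that removes ribonucleotides, had 380.4, 383 and 289 (0.40 and 0.41). The Rnaseh2c values come from a probe set of the _x_at class. At the low end, Ticrr, which helps load Cdc45, had 243, 237 and 289 (−0.25 and −0.28), Fbxw7, part of the ligase that degrades cyclin E, had 241, 264 and 291 (−0.27 and −0.14), and Recql4, a helicase needed for initiation, had 191, 192 and 215 (−0.17 and −0.16). With the mean of all probe sets this list had medians of −0.0018 and 0.033. Restricted to a mean signal of 200 or more, 72 of these genes had medians of 0.04 and 0.08.

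**Figure D3:**
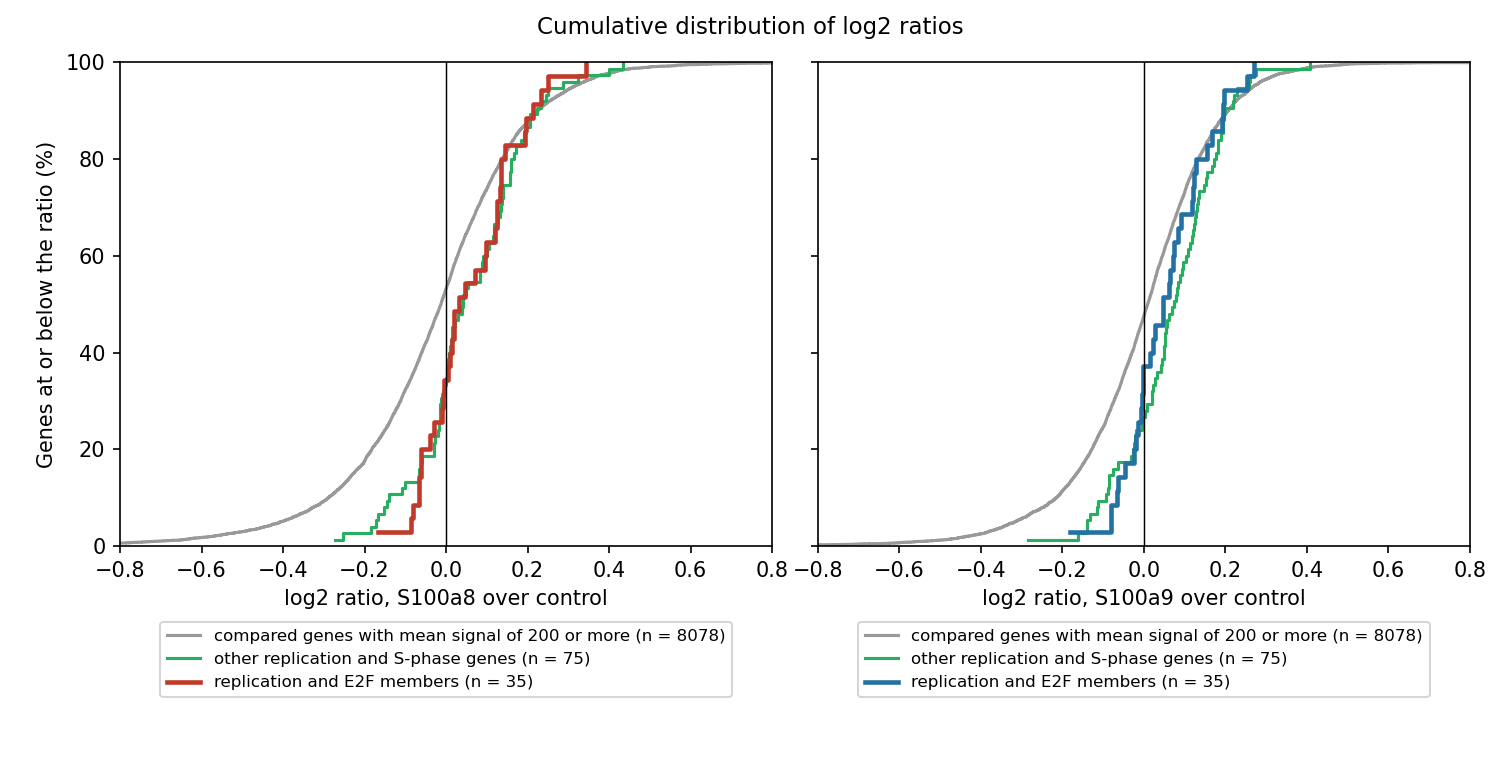
Cumulative share of genes (%) at or below each log2 ratio to control, for the 35 members, 75 other replication and S-phase genes and 8078 compared genes with a mean signal of 200 or more; S100a8 left, S100a9 right. Both replication curves are steeper than that of all bright genes and lie to its right at low ratios; the members' lowest ratios are −0.17 (S100a8) and −0.18 (S100a9).

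Markers of other cell states were read beside these values. Mki67, the marker of cycling cells, had 1922, 1989 and 2382 (−0.31 and −0.26), and Top2a, a topoisomerase of S to M phase, had 3865, 3825 and 4151 (−0.10 and −0.12), both highest in the control. Cdk1 had 5747, 5823 and 5679.6 (0.02 and 0.04), Birc5, a passenger protein of mitotic chromosomes, 3332, 2923 and 3146 (0.08 and −0.11), and Aurkb, a mitotic kinase, 1142, 929 and 1043 (0.13 and −0.17). Of these 5 markers 3 lay above control with S100a8 (median 0.02) and 1 with S100a9 (median −0.12), against 52.5% and 51.2% of all compared genes. They held no common direction with S100a8. The 5 measured proliferation markers, of 6 listed, had summed signals of 16007, 15489 and 16403. Of 6 epithelial markers, Krt18 (1032, 1236 and 1447) and Epcam (113, 85.5 and 101) had a mean above the floor, while Cdh1, Krt8, Krt19 and Cldn7 lay below it. Of 7 fibroblast markers 6 were above the floor. All 6 lay below control with S100a8 and 5 with S100a9 (medians −0.49 and −0.17), against 47.5% and 48.1% of all compared genes. The 7 summed to 10795, 11844 and 12037. Of 8 macrophage and granulocyte markers 4 were above the floor (medians 0.33 and 0.34), while Ptprc, Adgre1 and Itgam were below it. With S100a8, Cd68, Csf1r and Lyz2 lay above control (0.63, 0.47 and 0.20). Cd14, the brightest of the 4 (1075, 1418 and 1413), lay below control with S100a8 (−0.39) and near it with S100a9 (0.0053). The 7 measured ones, dim ones included, summed to 2109, 2369 and 2155. Of 5 lymphoid markers 3 were above the floor (0.36 and 0.01) and of 5 endothelial markers 2 (0.18 and −0.03). The part of these markers in the replication values was not tested. Compared genes with a mean signal under 200 had a median of 0.13 (log2 ratio, S100a8), against −0.01 for brighter ones, and 34 members were among the brighter.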

How the data were processed

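Total RNA of 3 CT26.WT cultures was labelled with biotin and hybridised to 1 array each, per the labels' protocols. The deposited values are probe set intensities made by the authors with MAS5, per the submitters' processing notes; neither its version nor the scaling target is given in the sources used here, and the table holds no detection calls. MAS5 subtracts mismatch signal, so dim intensities are noisy.

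Genes were named from the platform annotation; 34945 probe sets had 1 symbol, and 932 with several were left out, as were 64 control probe sets. Signals under the median of all signals (76.0) were set to it, log2 was taken, and each gene was represented by its brightest probe set, kept if its mean lay above the floor (means of signals were taken on the log2 scale). Ratios, medians and counts were computed with pandas 2.3.3 and numpy 2.4.6 under Python 3.11.15. A single array a group allowed neither a test nor a p-value; 1.2-fold is a descriptive size, and 1.5-fold an alternative. Promoters came from a RefSeq table (GRCm38.p6). All members were described, and other replication genes were named as the 2 highest and 2 lowest of each comparison with control. The members and lists were chosen with earlier results of these data known. The scripts were tested on simulated data. Other settings tried were quantile normalization, centring each array on its median, a floor at the 30th or at the 65th percentile, log2(value + 1) with no floor, keeping dim genes, averaging a gene's probe sets, and preferring probe sets whose ID lacks an _x_at or _s_at ending. A limit to genes with a mean signal of 200 or more was added after seeing the data.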

Additional observations from a re-analysis of the deposited data

How the results depend on the processing

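The members' median log2 ratio stayed above 0 against control under the 9 alternatives run on it, from 0.03 to 0.08 with S100a8 and from 0.03 to 0.06 with S100a9. For S100a9 against S100a8 it ran from −0.01 to 0.03. The median of all compared genes moved with the processing too. With median centring it was 0.05 with S100a8, 0.01 with S100a9 and −0.02 between the proteins. With quantile normalization it was 0.04 with S100a8 and 0.03 with S100a9. With S100a8, members at least 1.2-fold higher were 3 in place of 1 with median centring, and 2 with quantile normalization or when probe sets lacking an _x_at or _s_at ending were preferred. At 1.5-fold there were 0 with S100a8, 0 with S100a9, and 0 lower with S100a9 against S100a8. With the mean of all probe sets, 0 members were 1.2-fold higher with S100a9 in place of 1, and 1 was lower with S100a9 against S100a8 in place of 2. With the floor at the 30th percentile or no floor, 1 member, in place of 0, was 1.2-fold higher with S100a9 against S100a8. Shares of all compared genes at the 1.2-fold size are given for the main setting only. There, 13.8% were higher with S100a8 and 6.08% with S100a9. Between the proteins, 10.8% were lower and 4.27% higher with S100a9. The changed counts therefore cannot be set against all compared genes under the same setting. The median of the other replication genes with the mean of all probe sets was −0.0018 with S100a8 and 0.033 with S100a9. Each member's ratio was followed over the settings in which it was compared. It kept its sign in all of them for 25 of 35 genes with S100a8, 25 with S100a9 and 22 between the proteins. A changed floor or filter leaves a bright gene's ratio nearly as it was. The count therefore rests mainly on normalization and the choice of probe sets. Tyms was compared in 7 settings and the other members in 10. Cause was not tested in any of these. No paired analysis was possible because each group held 1 array. Signals near the floor, as for Tyms, and the single array per group limit every value.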
